A study of Mus musculus with 24 samples.

Results

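The proteasome subunit genes were examined in mouse adipose tissue after partial nephrectomy. They were taken as all genes of the count table whose symbol is Psma, Psmb, Psmc, Psmd, Psme, Psmf or Psmg followed by digits alone, which gave 48 of 54232 genes. By role these were 14 genes of the core particle (7 alpha and 7 beta subunits), 3 of the immunoproteasome, 2 core subunits known from single tissues, 17 of the cap (6 ATPases and 11 other subunits), 5 activators and inhibitors, and 7 assembly factors. All 48 passed the minimum for testing, more than 10 counts in total over 24 libraries, as did 26116 genes in all.

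Mice were C57BL6 males, 10 weeks old by the series description, with 6 per group and 1 library per mouse. Control animals had a sham operation and PNx animals a 5/6 partial nephrectomy. Every animal, controls included, was injected intraperitoneally with a lentivirus under an adiponectin promoter, which is meant to limit the transgene to adipocytes. It carried green fluorescent protein (GFP) alone in Control and PNx, and NaKtide, a peptide designed to block the Na,K-ATPase from signalling through Src, with GFP in NaKtide (sham) and PNx+NaKtide (nephrectomy). The comparisons address whether genes of ubiquitin-dependent proteolysis differ with renal failure and with NaKtide in renal failure.

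The proteasome degrades proteins that have been tagged with ubiquitin. Its barrel-shaped core holds the proteolytic sites, which belong to the beta subunits Psmb5, Psmb6 and Psmb7. The cap binds the tagged protein, removes the ubiquitin and unfolds the chain with its ATPases. In immune cells and under interferon gamma the 3 catalytic subunits are exchanged for Psmb8, Psmb9 and Psmb10, and the cap can be replaced by the activator of Psme1 and Psme2. Both exchanges serve the production of peptides for antigen presentation. Psme3 and Psme4 encode activators found mainly in the nucleus, of which Psme4 is abundant in testis. In fat, proteasome activity is known to be needed by thermogenic adipocytes.

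The libraries were shallow, with totals of 679250 to 2979505 counts, so that 3 counts, the limit which a count of 0 allows, stood for 0.739 to 5.91 CPM (counts scaled to a common library size, with library sizes adjusted by the TMM method), counting error alone considered. Several libraries stood apart over all genes. PNx replicates 1, 2 and 3 lay at 234, 199.9 and 191 on the first principal component, on which no other library passed 77.8, and PNx replicate 6 and NaKtide replicate 6 at 184 and 175 on the second. The 12 adipocyte markers summed to 5899.8 CPM in PNx replicate 6 and to 4746 CPM in that of NaKtide. In the other 22 libraries the sum was 99.8 to 1018 CPM, and none of the 12 was at 0 over the series. The 10 epididymis markers summed to 16.2 to 1762 CPM over the 24 libraries. The testis germ cell markers (12 genes) were at 436, 328, 519.5, 144, 103 and 457 CPM in PNx replicates 1 to 6, against 87.6 to 217 CPM in Control, and the macrophage markers (8 genes) at 151, 255, 170.1, 530.0, 447 and 271 CPM against 307 to 439.7 CPM. Their part in the results below was not tested. In such bulk tissue, fewer cells of a type and less RNA per cell cannot be told apart.

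Which strand the counts came from bears on the subunit genes. The libraries were made with a stranded kit, but the strand setting of the counting step was not given in the sources used here. For overlapping genes on opposite strands, the deposited counts alone therefore do not show which gene a read came from. Of the mitochondrial mRNAs, the single gene on the minus strand had 67.6 times the counts per kb of the 12 genes on the plus strand (range over libraries 21.02 to 194). Exons of 11 proteasome genes (22.9%) share bases with a gene on the other strand, against 16.8% of all genes. These 11 held 37.9% of the 29996 counts of the 48 genes, while over all genes those with such an overlap held 79.9% of the counts. The catalytic core subunit Psmb7, on the minus strand of chr2, shares 405 exon bases with the kinase gene Nek6. It had 422 counts over the 24 libraries and Nek6 51733. The immunoproteasome gene Psmb8 had 114 counts, beside 5762 of the annotated antisense gene Gm20496, with which it shares 498 bases. Psmb9 shares 212 bases with the peptide transporter gene Tap1, which had 211 counts to its 414. Psmc3 had 5020 counts and its neighbour Slc39a13 2321, and Psmd13 had 1157 to 1768 of Sirt3. In 7 of the 11 pairs the opposite gene had more counts than the proteasome gene, and the values of these 11 genes are uncertain for that reason. As the strand setting is not known, the counts of a gene may be reads of its own strand or of the opposite one. The levels of the other 37 genes, and the differences and shares below for all 48, are uncertain too. The part of the strand setting in them was not tested.

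**Figure D1:**
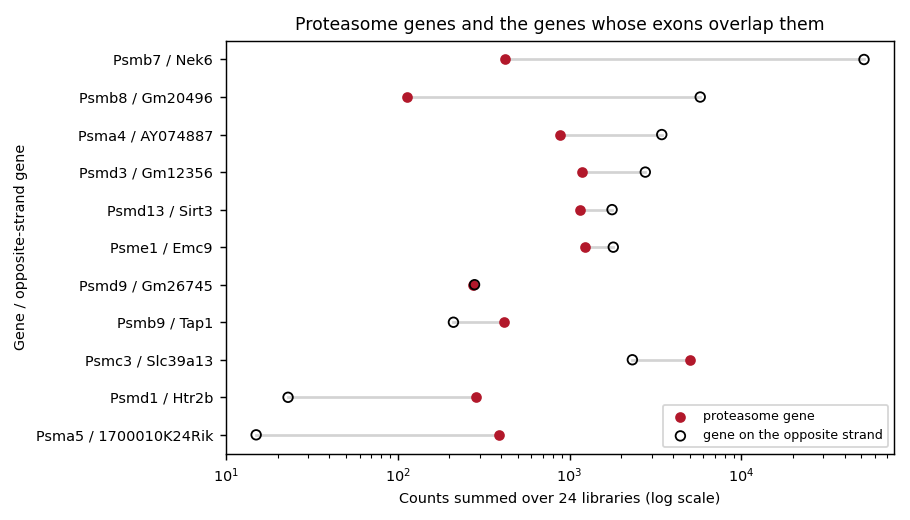
Counts summed over the 24 libraries (log axis) for the 11 proteasome genes whose exons overlap a gene on the opposite strand. Filled points are the proteasome gene and open circles the opposite gene, which lies to the right in 7 of 11 pairs, farthest for Psmb7 and Nek6 (422 and 51733 counts).

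Per transcript length, measured as the deposited FPKM (fragment counts scaled by transcript length and library size) averaged over the 24 libraries, the 48 genes had a median of 3.02, compared with 1.26 for the 16977 protein-coding genes tested. The highest level was that of Psmc3, a cap ATPase, at 42.1 FPKM. It was followed by Psmd7, a cap subunit that pairs with the deubiquitinase Psmd14, at 22.004 FPKM. Psme1 was at 13.1, the cap ATPase Psmc5 at 11.6 and the ubiquitin receptor Psmd4 at 11.3 FPKM. The groups had medians of 6.33 FPKM for the alpha subunits, 4.26 for the beta subunits, 6.79 for the cap ATPases, 5.20 for the other cap subunits, 2.52 for the immunoproteasome, 2.80 for activators and inhibitors and 2.21 for assembly factors. Among the 14 core genes, whose products enter the core in equal numbers, the level ran from 1.19 FPKM for Psma3 to 8.28 FPKM for Psmb5. Lowest was Psmb11, the thymus-specific core subunit, with 0.110 FPKM and 17 counts in all.

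Summed over the 48 genes the level was 617 ± 104 CPM in Control (SD, n = 6), 645 ± 189 CPM in NaKtide, 740.1 ± 334 CPM in PNx and 644 ± 105 CPM in PNx+NaKtide (each SD, n = 6), and the 4 ranges overlapped. The 6 PNx libraries were at 603, 527, 698, 543, 662 and 1409 CPM, replicates 1 to 6 in order. PNx replicate 6 was above the highest Control library in 42 of 48 genes (all genes tested, 32.9%), and it was the highest of the 24 libraries for 31 of the 48. PNx replicates 1, 2 and 3 had a mixed pattern, with 14, 9 and 16 genes above the Control range and 17, 22 and 13 below it (all genes, 37.0, 34.1 and 36.2% above and 28.9, 28.4 and 25.8% below). PNx replicates 4 and 5 had 1 and 7 above and 8 and 1 below (all genes, 13.1 and 10.3% above and 13.5 and 9.72% below). In NaKtide replicates 4 and 5, the shallowest libraries, 20 and 23 of the 48 genes lay below the Control range (all genes, 18.3 and 24.1%).

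**Figure D2:**
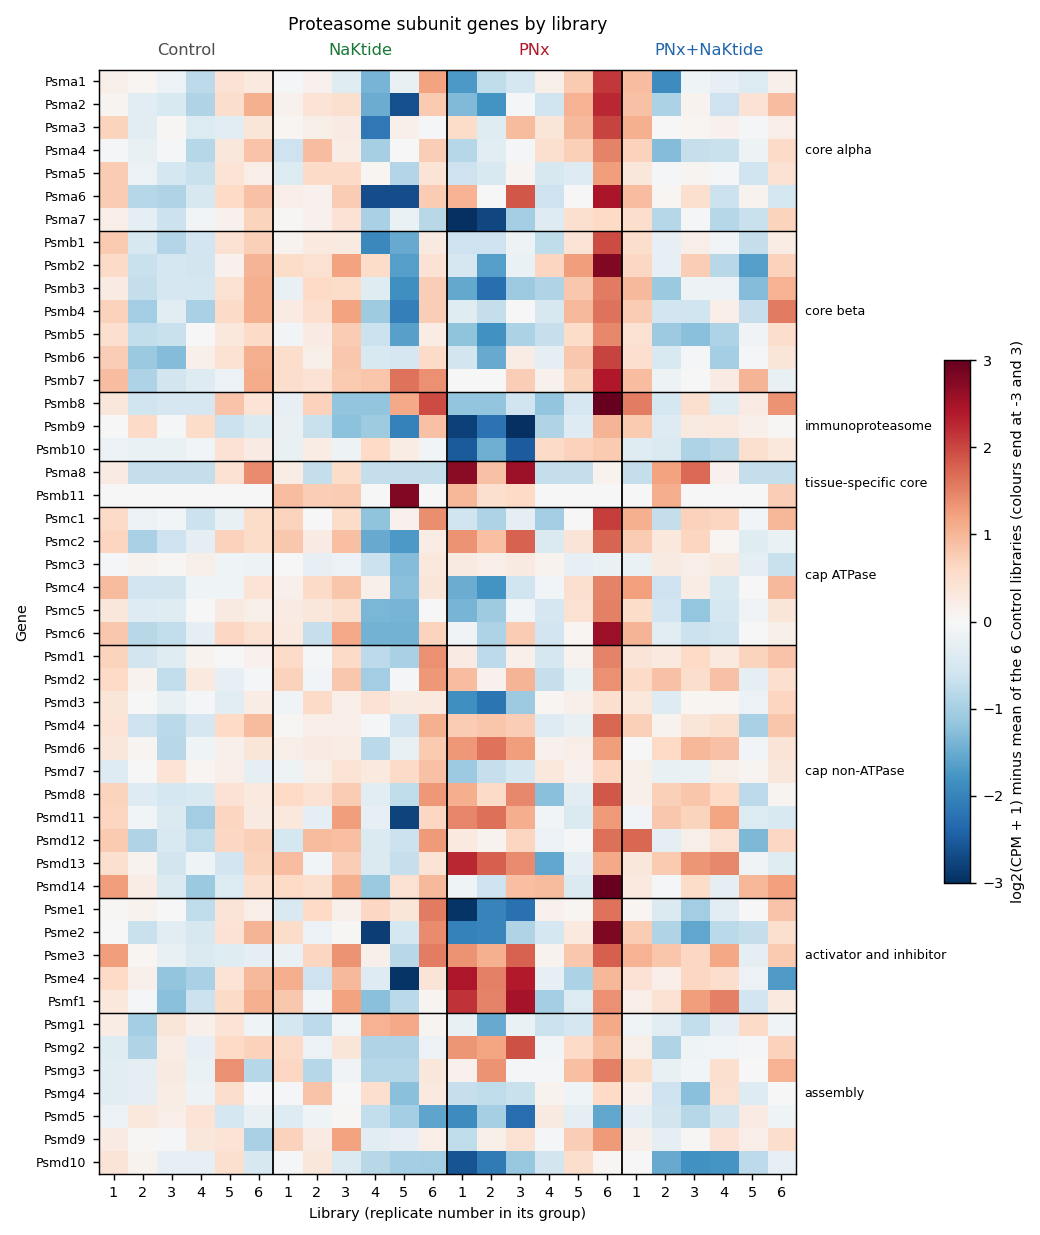
Level of each of the 48 genes (rows, by subcomplex) in each of the 24 libraries (columns, by group), as log2(CPM + 1) minus the mean of the 6 Control libraries, red for higher and blue for lower, with colours ending at -3 and 3. PNx replicate 6 is red in nearly every row, while PNx replicates 1 to 3 are blue for Psma7, Psmb9, Psmb10, Psmd3, Psme1 and Psmd5 and red for Psmd6, Psmd13, Psme4 and Psmf1.

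For PNx against Control, no proteasome gene passed a Benjamini-Hochberg adjusted p under 0.1 (edgeR quasi-likelihood test over 26116 genes), a threshold that 0.0766% of all genes passed (20, each lower in PNx). At an unadjusted p under 0.05 there were 10 of 48, of which 9 were higher in PNx, compared with 25.4% of all genes in either direction and 18.5% in the higher one. The fitted difference was above 0 for 34 of 48 genes, compared with 60.7% of all genes, and its median was 0.51 (log2), against 0.36 for all genes. On simulated counts, the edgeR test called 0% of the genes changed by 1 (log2) and 19% of those changed by 2. Other tools called more. DESeq2 called 15 of the 48, all higher in PNx, where 29.7% of all genes were called (26.3% higher). limma voom with sample weights called 28, of which 14 were higher, where 63.5% of all genes were called (32.6% higher). Within edgeR, DESeq2 size factors gave 16 calls (33.3% of all genes), library size scaling 6 (15.7%) and the filterByExpr filter 8 (17.9%). Leaving out PNx replicate 4 gave 14 (33.2%), PNx replicate 5, 7 (23.2%) and replicate 6 of both PNx and NaKtide, 7 (21.8%). The ranges of the groups overlapped for each of the 48 genes (separate in 0.486% of all genes).

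Among cap genes, the non-ATPase subunit Psmd6 (ENSMUSG00000021737, GRCm38 chr14:14112174-14120984, minus strand), which helps to hold the cap together, had 18.7, 23.8, 18.2, 7.85, 8.32 and 18.1 CPM in PNx replicates 1 to 6 and 3.55 to 9.37 CPM (median 7.76) in Control. All 6 PNx libraries were above the Control mean, and replicates 4 and 5 lay within the Control range. The log2 difference was 1.11 ± 0.38 (SE), with an adjusted p of 0.135 by edgeR. Psmd13 (chr7:140881968-140898643, plus strand), which shares 342 exon bases with Sirt3, was at 67.8, 48.9, 37.6, 3.93, 10.7 and 30.9 CPM in PNx and 8.64 to 22.1 CPM (median 13.4) in Control. Replicates 1, 2, 3 and 6 were above every Control library, and replicate 4 was below. Its difference was 1.23 ± 0.50, with an adjusted p of 0.152 by edgeR. The ATPase gene Psmc2 had 23.9, 17.4, 32.3, 6.28, 11.9 and 31.7 CPM against 4.003 to 14.8 CPM in Control (log2 difference 1.07 ± 0.48, edgeR adjusted p 0.171). Psmd3 went the other way in PNx replicates 1, 2 and 3, where the gene for this scaffold subunit was at 7.39, 5.65 and 13.1 CPM. Control was at 23.4 to 38.1 CPM and the other PNx libraries at 30.6, 32.7 and 41.5 CPM. For the 3 cap genes of highest FPKM the groups overlapped, with 94.4 to 136 CPM for Psmc3 in PNx and 102 to 128 CPM in Control, 21.7 to 75.1 CPM and 36.2 to 63.3 CPM for Psmd7, and 5.91 to 50.6 CPM and 13.0 to 21.8 CPM for Psmc5. Over the 17 cap genes, 3 had an unadjusted p under 0.05 by edgeR, all higher in PNx (all genes, 25.4% in either direction and 18.5% higher). The median difference was 0.57. The other 10 cap genes (Psmc1, Psmc4, Psmc6, Psmd1, Psmd2, Psmd4, Psmd8, Psmd11, Psmd12 and Psmd14) had Control medians between 1.06 and 24.2 CPM and log2 differences between -0.01 (Psmc4) and 1.37 (Psmd14), none with an unadjusted p under 0.05.

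In the core, 1 of 14 genes had an unadjusted p under 0.05 by edgeR (all genes, 25.4%), and the median difference was 0.35, close to that of all genes. This gene, the alpha subunit Psma3, was at 5.42, 2.42, 7.57, 4.71, 7.72 and 16.98 CPM in PNx and 2.33 to 6.03 CPM (median 3.03) in Control, a difference of 1.04 ± 0.50 with an adjusted p of 0.189 by edgeR. Psma7, another subunit of the alpha ring, was at 1.72, 3.23, 12.9, 20.4, 38.6 and 41.9 CPM in PNx and 17.2 to 43.5 CPM (median 27.6) in Control. Replicates 1 to 3 were below every Control library. Of the catalytic subunits, Psmb5, which carries the chymotrypsin-like site, was at 2.96, 1.62, 3.78, 4.71, 12.5 and 23.8 CPM in PNx and 4.50 to 12.7 CPM (median 9.33) in Control (-0.10 ± 0.56, edgeR adjusted p 0.924). Psmb6, with the caspase-like site, was at 5.67, 2.42, 10.3, 7.07, 16.0 and 38.9 CPM, compared with 2.96 to 19.4 CPM (median 11.1) (0.34 ± 0.53, edgeR adjusted p 0.685). Psmb7, with the trypsin-like site, was at 5.67, 5.65, 10.1, 6.28, 9.503 and 34.3 CPM, compared with 2.502 to 13.4 CPM (median 4.51) (0.84 ± 0.49, edgeR adjusted p 0.264). PNx replicate 6 was the highest of the 24 libraries for all 3. The other 9 core genes (Psma1, Psma2, Psma4, Psma5, Psma6, Psmb1, Psmb2, Psmb3 and Psmb4) had Control medians between 1.83 and 17.2 CPM and log2 differences between -0.09 (Psmb3) and 1.18 (Psmb2).

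The immunoproteasome genes varied widely within PNx (summed level, mean 20.9, SD 24.1 CPM). Psmb9 (chr17:34181987-34187764, minus strand) was at 0.739, 1.62, 0, 5.50, 8.32 and 23.8 CPM in PNx replicates 1 to 6 and at 6.79 to 17.01 CPM (median 10.9) in Control, so that replicates 1 to 4 were below all Control libraries and replicate 6 above them. Its difference was -0.83 ± 0.69 with an adjusted p of 0.423 by edgeR, and without replicate 6 it was -1.99 with an adjusted p of 0.0827. Psmb10 was at 1.23, 3.63, 1.26, 18.1, 19.6 and 20.8 CPM, against 10.0 to 16.0 CPM (median 10.6) (-0.17 ± 0.53, edgeR adjusted p 0.851). Psmb8 had no count in PNx replicates 1, 2 and 4 and was at 0.505, 0.594 and 19.6 CPM in replicates 3, 5 and 6, with 0.500 to 3.08 CPM (median 1.22) in Control (1.27 ± 1.07, edgeR adjusted p 0.429). The 3 genes summed to 1.97, 5.25, 1.77, 23.6, 28.5 and 64.2 CPM in PNx replicates 1 to 6, and to 25.1 ± 2.75 CPM in Control. In the same libraries the T cell markers (7 genes) summed to 15.0, 20.998, 15.1, 66.0, 45.7 and 7.93 CPM, against 41.8 to 55.0 CPM in Control, and their part in this was not tested.

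**Figure D3:**
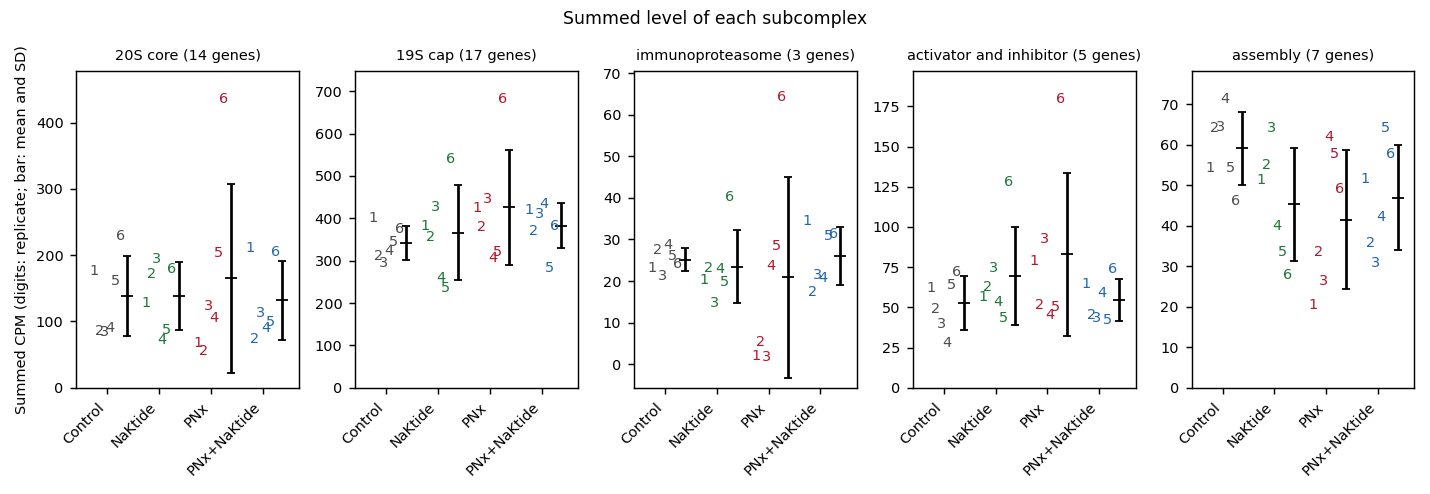
Summed CPM of the genes of each subcomplex (core, cap, immunoproteasome, activators and inhibitors, assembly factors) by group. Digits are replicates, and bars are the mean and SD of 6 libraries. PNx replicate 6 is the highest library in 4 panels, and PNx replicates 1 to 3 lie between 1.77 and 5.25 CPM in the immunoproteasome panel, below all other libraries.

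The activator genes divided by kind. Psme1, a subunit of the interferon-inducible activator, was at 2.71, 6.06, 5.05, 29.8, 28.5 and 86.8 CPM in PNx and 15.8 to 36.4 CPM (median 28.9) in Control (-0.10 ± 0.57, edgeR adjusted p 0.927), and its partner Psme2 at 0.739, 0.808, 2.78, 3.93, 7.72 and 48.3 CPM and 3.502 to 13.4 CPM (median 5.38) (0.68 ± 0.78, edgeR adjusted p 0.576). For both, PNx replicates 1 to 3 were below every Control library and replicate 6 was above. Psme3 (chr11:101316213-101323537, plus strand) was instead at 12.6, 10.1, 17.2, 4.71, 8.32 and 17.4 CPM in PNx and 2.92 to 11.6 CPM (median 3.45) in Control, where replicate 1 alone passed 5 CPM. The difference was 1.26 ± 0.47, with an adjusted p of 0.141 by edgeR. Psme4 (chr11:30771726-30880361, plus strand) was at 40.2, 20.998, 38.9, 5.50, 2.97 and 14.3 CPM in PNx and 2.37 to 14.1 CPM (median 8.38) in Control. Replicates 1, 2, 3 and 6 were above all Control libraries, and the difference was 1.40 ± 0.62 with an adjusted p of 0.170 by edgeR. Psmf1, which encodes an inhibitor of the core, was at 22.7, 13.7, 28.8, 1.57, 2.97 and 12.5 CPM in PNx and 1.18 to 10.0 CPM (median 4.79) in Control (1.48 ± 0.60, edgeR adjusted p 0.153), with the same 4 libraries above the Control range. Of the 5 genes, 3 had an unadjusted p under 0.05 by edgeR, all higher in PNx (all genes, 25.4% in either direction and 18.5% higher). The germ cell marker sums given above were also highest in PNx replicates 1, 2, 3 and 6 among the PNx libraries. In NaKtide replicate 6, where that sum was 665 CPM, Psme3 was at 14.2 CPM, above all Control libraries, and Psme4 and Psmf1 were at 9.05 and 4.53 CPM, within the Control range.

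Assembly factors went in both directions. Psmd5, a chaperone of the cap base, was at 10.3, 19.8, 7.57, 49.5, 33.9 and 13.2 CPM in PNx and 27.8 to 54.8 CPM (median 41.5) in Control. Replicates 1, 2, 3 and 6 were below the lowest Control library. Its difference was -0.92 ± 0.41, with an adjusted p of 0.170 by edgeR. Psmd10, a further chaperone of the cap base that is also known as gankyrin, was at 0, 0.404, 1.77, 3.14, 7.72 and 5.28 CPM and 3.35 to 7.40 CPM (median 4.82) (-0.83 ± 0.66, edgeR adjusted p 0.403). Psmg2, a chaperone of core assembly, was higher in PNx at an unadjusted p under 0.05 (1.61 ± 0.67, edgeR adjusted p 0.157), with 3.696, 3.23, 6.06, 0.785, 1.78 and 2.64 CPM against 0 to 2.01 CPM. The 7 assembly genes had a median difference of -0.18, and the other 4 (Psmg1, Psmg3, Psmg4 and Psmd9) lay between -0.38 (Psmg4) and 0.96 (Psmg3). Of the core subunits known from single tissues, Psma8, which replaces an alpha subunit in germ cells, was at 9.61, 2.02, 8.58, 0, 0 and 0.755 CPM in PNx and 0 to 3.35 CPM (median 0.464) in Control (1.99 ± 1.04, edgeR adjusted p 0.220). Its 2 highest libraries, PNx replicates 1 and 3, were among the 4 PNx libraries of high germ cell marker sums. In PNx replicate 6 and NaKtide replicate 6, with germ cell marker sums of 457 and 665 CPM, Psma8 was at 0.755 and 0 CPM. Psmb11 had no count in any Control library and 4, 1 and 2 counts in PNx replicates 1 to 3, and no difference is given for it. It was among the genes counted above as higher in PNx at an unadjusted p under 0.05 by edgeR.

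**Figure D4:**
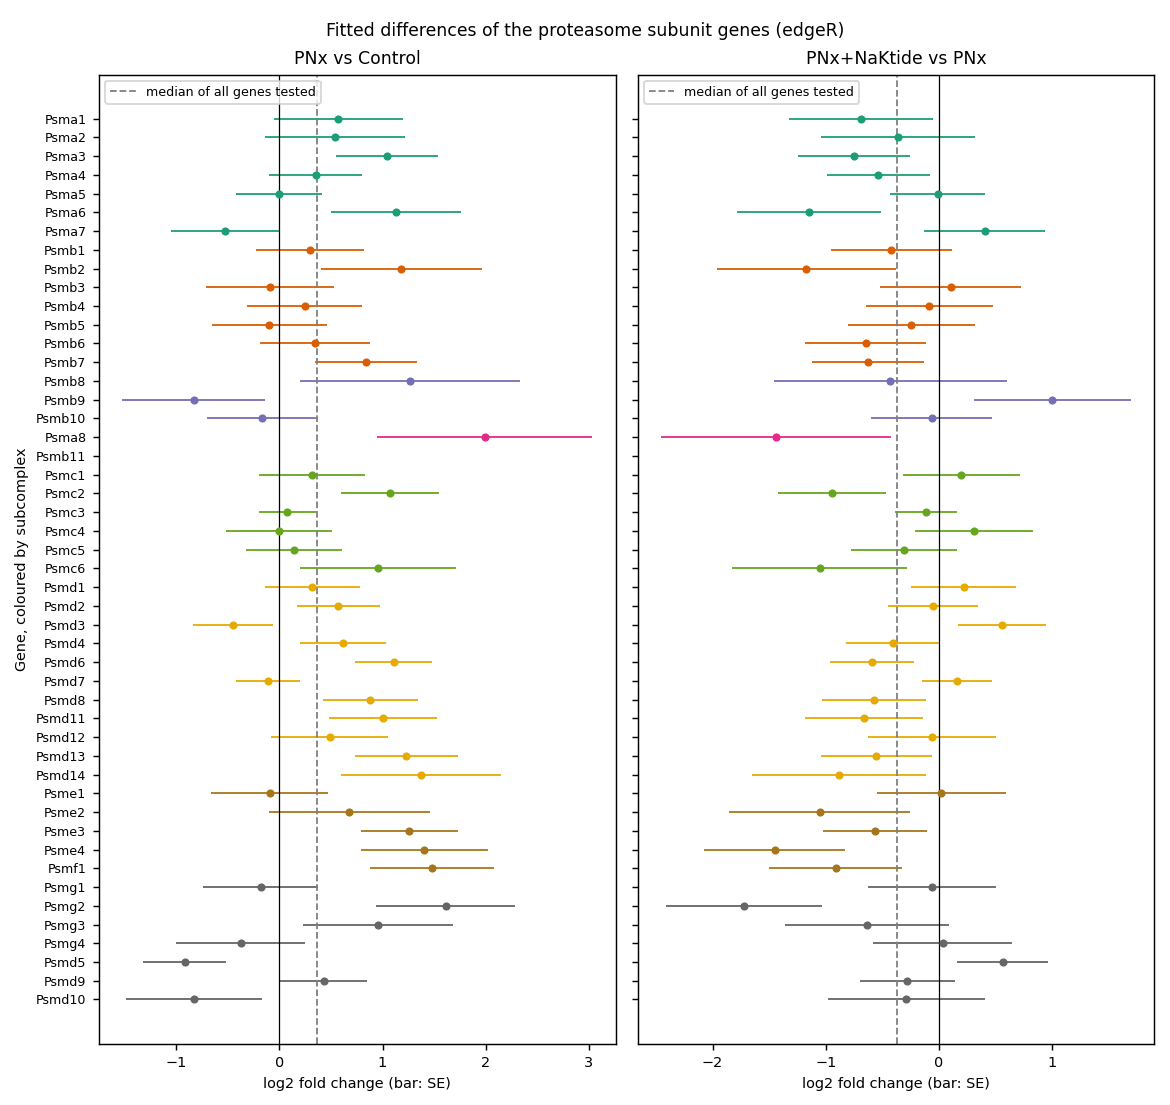
Log2 difference and its SE (edgeR) of 47 proteasome genes for PNx against Control (left) and PNx+NaKtide against PNx (right), coloured by subcomplex. The dashed line is the median of all genes tested (0.36 and -0.37), and Psmb11, at 0 in every Control library, is left out. No gene passed an adjusted p under 0.1 in either panel.

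These differences depended on the libraries that stand apart. Without PNx replicates 1, 2 and 3, none of the 47 genes tested was called by edgeR and 7 had an unadjusted p under 0.05 (all genes, 0% called and 11.1% at the unadjusted p). All 14 core genes then had a difference above 0 (all genes, 47.5%), and the core median was 0.86 (all genes -0.05). PNx replicates 4, 5 and 6 alone remained in that fit, with core sums of 106, 204 and 435 CPM. Control was at 84.6 to 229 CPM, so only replicate 6 was above it. Without PNx replicate 6, the core median was -0.35, that of the immunoproteasome -1.99 and that of all 48 genes -0.19 (all genes 0.02). The 2 genes then called were Psmb9, lower in PNx, and Psmd6, higher (1.07, adjusted p 0.0901), where 14.8% of all genes passed. The median of all genes itself depended on the scaling, at 0.36 with TMM, 0.76 with DESeq2 size factors and 0.70 with library size alone. The proteasome genes had medians of 0.51, 0.78 and 0.88 in the same fits.

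The start regions of these genes were compared in the RefSeq table of GRCm38.p6, which gives 250 bases before to 50 after each start and held 40 of the 48 genes. The letters CCGGAAG, a core sequence bound by ETS factors, were found on either strand in 14 of the 40 (35.0%), compared with 9.93% of the 27025 genes in the table. They were present in 9 of 14 cap genes, 1 of 11 core genes and 4 of the other 15. The cap genes with these letters included Psmc1, Psmc6, Psmd2, Psmd4, Psmd11 and Psmd12, none with an unadjusted p under 0.05 by edgeR for PNx against Control. Of the cap and activator genes described singly above that have an entry, Psmd6, Psmd13, Psmc2, Psme3 and Psme4 held the letters, and Psmf1, Psme1, Psme2 and Psmc5 did not. Each stretch of 4 of these genes is shown with 10 bases on either side, in the direction of the gene, with the match in capitals (CTTCCGG is the same motif on the other strand).
Psmd6 (chr14:14120974-14121000, minus strand): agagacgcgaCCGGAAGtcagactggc
Psmd13 (chr7:140882378-140882404, plus strand): gcccgcggtgCCGGAAGtgagcgagca
Psme3 (chr11:101316096-101316122, plus strand): ggcacaaggcCCGGAAGctccgacagc
Psme3 (chr11:101316205-101316231, plus strand): tgtgacgcaaCTTCCGGcgtgagcggc
Psme4 (chr11:30771712-30771738, plus strand): tggccccgccCCGGAAGtgacttgagg
Positions are counted from the RefSeq starts, which can differ from the gene bounds given above. The first capital lies 45 bases before the start in Psmd6, 6 before in Psmd13 and 53 before in Psme4. In Psme3 the matches lie 107 before the start and at position 3, counting the start as 1. The CCAAT box was found in 14 of 40 genes (35.0%; all genes 41.1%), in 6 of 11 core and 4 of 14 cap genes. Those of the core gene Psmb3 and of Psmb9 are shown in the same way (ATTGG is CCAAT on the other strand).
Psmb3 (chr11:97703339-97703363, plus strand): gcatgagtgtCCAATagaaagctga
Psmb3 (chr11:97703381-97703405, plus strand): ggcccgccagCCAATggggaggatt
Psmb9 (chr17:34187324-34187348, minus strand): gcagccgctgATTGGaaagccgagc
The interferon-stimulated element (TTTC, 2 further bases, TTTC) was found in 5 (12.5%; all genes 3.99%). These were Psmb3, Psmd4, Psmd9, Psme1 and Psmg4, with none of the immunoproteasome genes among them. TTCNNNGAA was found in 3, Psmb8, Psmd2 and Psmg1 (7.5%; all genes 9.55%). TGACNNNGC, the letters of an antioxidant response element, was found in 6 (15.0%; all genes 14.0%). The longer TGACTCAGC was found in 0 of 40 (0.503% of all genes) and TATAAA in 4 (all genes 15.7%). TGACGTCA, the cyclic AMP response element, and the 10-base NF-kB site were found in 0 (all genes 2.03 and 0.174%), the palindromic NRF1 site in 2 (all genes 1.07%) and the ZNF143 site in 1 (all genes 0.847%). These matches describe the letters alone, since no binding was measured.

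The make-up of the complex was then expressed as shares of counts within each library, which do not depend on the scaling between libraries (intervals are exact 95% binomial intervals and cover counting error alone). Psmb8, Psmb9 and Psmb10 held 34.6 to 72.4% of the counts of the 6 catalytic genes Psmb5 to Psmb10 in Control, 26.2 to 51.4% in NaKtide and 48.8 to 58.7% in PNx+NaKtide. In PNx the share was 12.1% (8 of 66 counts, interval 5.38 to 22.5%) in replicate 1, 35.1% (13 of 37 counts, interval 20.2 to 52.5%) in replicate 2 and 6.80% (7 of 103 counts, interval 2.78 to 13.5%) in replicate 3. It was 56.6, 42.9 and 39.8% in replicates 4 to 6, within the Control range. Replicates 1 and 3 were thus the only libraries of the series under 20%, and Psmb7, Psmb8 and Psmb9, which enter this share, overlap other genes on the opposite strand.

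Of the counts of the 4 activator genes Psme1 to Psme4, Psme3 and Psme4 together held 15.4 to 39.3% in Control and 4.76 to 41.8% in NaKtide. In PNx replicates 1, 2 and 3 they held 93.9% (214 of 228 counts, interval 89.9 to 96.6%), 81.9% (77 of 94 counts, interval 72.6 to 89.1%) and 87.7% (222 of 253 counts, interval 83.1 to 91.5%). Replicates 4, 5 and 6 were at 23.2, 23.8 and 19.005%, again within the Control range, although replicate 6 had the highest Psme1 level of the series. In PNx+NaKtide the share was 32.7, 41.4, 55.6, 45.8, 22.9 and 13.9% in replicates 1 to 6, of which replicates 2, 3 and 4 were above the Control range. The core held 31.1 to 45.6% of the counts of core and cap genes in Control when Psmc3 was left out, and 18.8, 18.2, 28.7, 36.5, 47.3 and 42.7% in PNx replicates 1 to 6. No share separated PNx from Control as groups.

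**Figure D5:**
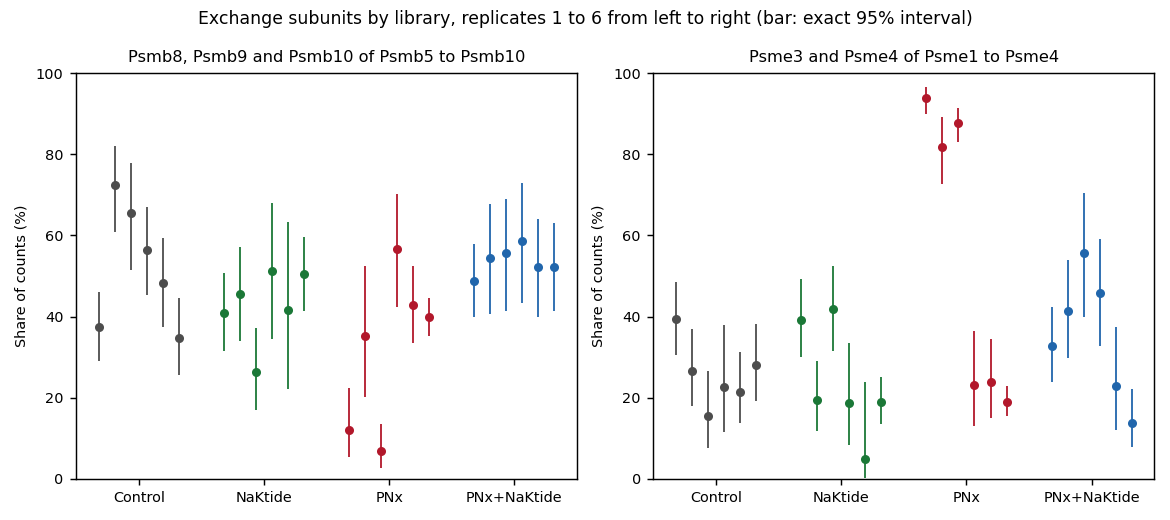
Share of counts in each library (replicates 1 to 6 from left to right within a group) with exact 95% intervals. Left, Psmb8, Psmb9 and Psmb10 as a percentage of the counts of Psmb5 to Psmb10, and right, Psme3 and Psme4 as a percentage of Psme1 to Psme4. PNx replicates 1, 2 and 3 stand at 93.9, 81.9 and 87.7% on the right, above all other libraries, and replicates 1 and 3 at 12.1 and 6.80% on the left, below all others.

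For PNx+NaKtide against PNx, which asks whether NaKtide alters expression in renal failure and shares the PNx libraries with the comparison above, no proteasome gene was called by edgeR (0% of all genes were). At an unadjusted p under 0.05 there were 2 of 48, both lower in PNx+NaKtide, compared with 12.7% of all genes in either direction and 8.6% in the lower one. The median difference was -0.38 (all genes -0.37). DESeq2 called Psme4, Psmc2 and Psmd6, all 3 lower, where 5.8% of all genes were called (4.76% lower). Voom called 17, of which 11 were higher, where 42.4% of all genes were called (23.8% higher). The ranges of the groups overlapped for all 48 genes (separate in 0.456% of all genes).

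Psme4 was at 9.41, 7.80, 10.7, 9.98, 5.82 and 1.36 CPM in PNx+NaKtide replicates 1 to 6. All 6 were below the PNx mean of 20.5 CPM, and PNx replicates 4 and 5 lay among them. The difference was -1.45 ± 0.62, with an adjusted p of 0.370 by edgeR. Without PNx replicates 1, 2 and 3 it was 0.00802. Psmg2 was at 1.11, 0, 0.714, 0.768, 0.832 and 2.04 CPM (-1.72 ± 0.69, edgeR adjusted p 0.357) and Psmc2 at 15.5, 11.1, 14.3, 9.21, 6.65 and 7.47 CPM (-0.94 ± 0.48, edgeR adjusted p 0.407). In the other direction, Psmb9 was at 19.9, 8.36, 13.6, 13.8, 12.5 and 11.5 CPM in PNx+NaKtide, above the PNx mean of 6.66 CPM in 6 of 6 libraries (1.00 ± 0.69, edgeR adjusted p 0.477). Psmd3, at 36.5, 22.3, 30.7, 30.7, 25.8 and 46.2 CPM, was also above its PNx mean of 21.8 CPM in 6 of 6 (0.56 ± 0.39, edgeR adjusted p 0.481), and without PNx replicates 1, 2 and 3 the difference was -0.079. Psmd5 was at 33.8, 27.3, 22.1, 27.6, 48.2 and 37.3 CPM, above the PNx mean in 5 of 6 (0.56 ± 0.41, edgeR adjusted p 0.488).

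By subcomplex, the difference was below 0 for 12 of 14 core genes (median -0.48) and 12 of 17 cap genes (median -0.31), none with an unadjusted p under 0.05, where 36.2% of all genes had one above 0. The catalytic genes Psmb5, Psmb6 and Psmb7 were at 2.86 to 12.2 CPM, 3.84 to 12.7 CPM and 4.75 to 12.5 CPM in PNx+NaKtide, and Psmb8 and Psmb10 at 0.557 to 5.54 CPM and 5.72 to 16.6 CPM. The 2 lowest Psmb7 libraries, 4.75 and 5.02 CPM, were below all PNx libraries, and the other values lay within the PNx range of their gene. The immunoproteasome genes summed to 34.3, 17.3, 21.4, 20.7, 30.8 and 31.2 CPM in PNx+NaKtide replicates 1 to 6, with a mean of 26.0 and an SD of 6.99 CPM, against the SD of 24.1 CPM in PNx. Psme1 and Psme2 were at 12.9 to 50.2 CPM and 1.43 to 11.1 CPM, Psme3 at 3.33 to 10.7 CPM. Without PNx replicate 6 the sign of the medians turned, to 0.30 for the core and 0.20 for all 48 genes, and without PNx replicates 1, 2 and 3 they were -1.01 and -0.58 (all genes -0.11 and -0.01).

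Without nephrectomy, NaKtide against Control gave no call by edgeR among the 48 genes (0% of all genes) and none by DESeq2 or voom (0.0115 and 0.00766% of all genes). By edgeR the only gene with an unadjusted p under 0.05 was Psmb11, with counts in 4 NaKtide libraries and none in Control (all genes 3.95%). Medians were 0.11 for the proteasome genes and 0.00 for all genes. Psmb7 was at 8.56, 7.96, 10.5, 10.9, 19.7 and 16.2 CPM in NaKtide replicates 1 to 6, above the Control mean of 6.68 CPM in each, and at 12.3 ± 4.64 CPM on average (SD; log2 difference 0.85 ± 0.51, edgeR adjusted p 1.00). Psme3 (0.64 ± 0.48) and Psmd7 (0.38 ± 0.31) also had values above 0, and Psmd5 (-0.58 ± 0.40), Psmc3 (-0.26 ± 0.28) and Psmd10 (-0.49 ± 0.67) values below 0, all with an edgeR adjusted p of 1. Each of the 11 non-ATPase cap genes had a difference above 0, between 0.09 and 0.55, none with an unadjusted p under 0.05 (above 0, 49.4% of all genes). Without replicate 6 of PNx and NaKtide it was above 0 for 9 of the 11.

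With NaKtide in both groups, PNx+NaKtide against NaKtide gave no call by edgeR (0% of all genes), DESeq2 (0.00766%) or voom (0%). None of the 48 genes had an unadjusted p under 0.05 by edgeR (all genes 4.09%) or DESeq2, and 2 had by voom. For DESeq2 and voom, no share of all genes at this unadjusted p is given. The median was 0.01 (all genes 0.04). The smallest p were those of Psmb7 (-0.64 ± 0.51), Psme1 (-0.65 ± 0.57) and Psmd7 (-0.33 ± 0.31), lower in PNx+NaKtide, and of Psma8 (1.38 ± 1.27), Psmd6 (0.38 ± 0.39) and Psmb9 (0.66 ± 0.70), higher, with edgeR adjusted p of 1. The difference between the nephrectomy effects with and without NaKtide was tested as an interaction, which called none of the 48 genes by edgeR (0% of all genes) or DESeq2 (0.36%) and 9 by voom (25.2%). By edgeR, at an unadjusted p under 0.05 there were 2 (all genes 9.27%), Psmb11 and Psmb7 (-1.48 ± 0.71, edgeR adjusted p 0.535). Next below 0 were Psme3 (-1.20 ± 0.66) and Psme4 (-1.54 ± 0.88), and above 0 Psmd5 (1.15 ± 0.57), Psmb9 (1.49 ± 0.98) and Psma7 (0.61 ± 0.75), with edgeR adjusted p between 0.549 and 0.781.

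Genes that work with the proteasome were read from a list of 28, of which 27 were found (ubiquitin precursors, shuttle factors, the segregase Vcp and its cofactors, and regulators of subunit expression such as Nfe2l1). None was called in any of the 5 tests by edgeR. For PNx against Control, 3 of 27 had an unadjusted p under 0.05, all higher in PNx (all genes, 25.4% in either direction and 18.5% higher). They were Ufd1, a Vcp cofactor (1.25 ± 0.50, edgeR adjusted p 0.152), Ngly1, a deglycosylase that processes Nfe2l1 (2.03 ± 0.85, edgeR adjusted p 0.157), and Vcp (0.80 ± 0.38, edgeR adjusted p 0.186). Their means in Control and PNx were 8.48 and 20.1 CPM for Ufd1, 1.63 and 6.71 CPM for Ngly1 and 34.8 and 60.6 CPM for Vcp. All 3 overlap an opposite-strand gene by 21 to 352 exon bases. The list's median was 0.32, near that of all genes. For PNx+NaKtide against PNx, Ufd1 alone had an unadjusted p under 0.05 (-1.07 ± 0.50, edgeR adjusted p 0.388), and the list's median was -0.19.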

How the data were processed

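RNA of adipose tissue from 24 mice (4 groups of 6, by the labels) was sequenced in paired reads of 50 bases. Per the labels the authors used Trimmomatic 0.38, HISAT2 2.1.0 and DESeq2 1.20.0 with GRCm38, and they deposited raw counts per gene, normalized values (not used here) and FPKM. Neither the strand setting nor the annotation release of the counting is given in the sources used here. Raw counts as deposited were tested with edgeR 4.0.16 (R 4.3.3), and the FPKM deposited by the authors served for levels and for an alternative on log2(FPKM + 1) or log2(FPKM + 0.1), which understates differences of low genes.

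Genes with more than 10 summed counts entered 1 quasi-likelihood fit of 4 group means, with TMM (trimmed mean of M-values) scaling, robust dispersions and a call at a Benjamini-Hochberg adjusted p under 0.1. Tests were checked on simulated counts. Symbols and exons came from GENCODE M21 (bedtools 2.31.1). Alternatives were other scalings, filters, DESeq2 1.42.0, limma 3.58.1 with voom, the compared groups alone, a block by replicate number, a stricter threshold and leaving out libraries. The members, lists, tests and alternatives were chosen with earlier results of these data known. Named genes were the catalytic and activator subunits, Psma8, the 5 of highest FPKM and, per contrast and direction, up to 3 of smallest p with a mean of at least 1 CPM. Other members past an unadjusted p under 0.05 were also named, and the start region of Psmb3 was chosen after its values were seen. Some related items are not reported here. All libraries of the same group differed by more than sampling noise (lowest chi-square per degree of freedom for a pair, 1.57).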

Additional observations from a re-analysis of the deposited data

Results flagged for a closer look

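In each group of 6 libraries, the gap from the highest or lowest library to its neighbour was set against the whole range of the group, for 116 combinations of group and gene or sum. In 15 of them this ratio passed Dixon's 95% limit for 6 samples. Chance passes it in about 1 of 20 where values are normal and independent. CPM from few counts, and sums that share genes and libraries, need not be so, and the number is therefore not compared with that rate. Of the 15, 9 were PNx replicate 6 and 4 NaKtide replicate 6, each time the highest of its group.

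For PNx replicate 6 the ratio was 0.806 for the sum of all 48 genes, 0.629 for the cap and 0.648 for activators and inhibitors. Among single genes it was 0.627 for Psmb6, 0.845 for Psmb7, 0.970 for Psmb8, 0.650 for Psmb9, 0.677 for Psme1 and 0.853 for Psme2. This library also held the highest sums of the adipocyte and erythrocyte markers of the series (5899.8 and 1627 CPM), whose part in these values was not tested.

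For NaKtide replicate 6 the ratio was 0.664 for the immunoproteasome sum (40.1 CPM), 0.629 for activators and inhibitors, 0.638 for Psme1 and 0.675 for Psmd4. Its skeletal muscle markers summed to 5021 CPM (median of all libraries 25.3). In Control, Psme3 in replicate 1 gave 0.817 and Psma8 in replicate 6 0.631.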

How the results depend on the processing

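The number of proteasome genes called for PNx against Control was 0 by edgeR (all genes, 0.0766%, with the share of all genes also in brackets below). It was 16 with DESeq2 size factors (33.3%), 6 with library size scaling (15.7%) and 8 of 37 tested with the filterByExpr filter (17.9%). DESeq2 called 15 (29.7%) and voom 28 (63.5%). Without PNx replicate 6 and NaKtide replicate 6 together, edgeR called 7 (21.8%). Leaving out 1 library gave 0 to 14 calls. There were 14 without PNx replicate 4 (33.2%), 7 without replicate 5 (23.2%), 2 without replicate 6 (14.8%) and 0 otherwise. In all, 9 of 37 alternatives called a member, and Psmd6 was among the calls in each of the 9, higher in PNx. Psmb9 and Psmb8 were called lower without PNx replicate 6 and NaKtide replicate 6 (-2.005 and -2.35). For PNx+NaKtide against PNx, DESeq2 called 3 genes (5.8%) and voom 17 (42.4%), and for the interaction voom called 9 (25.2%). All other alternatives gave 0 calls in the 5 tests (leaving out 1 library, 0 to 0 for the other 4). The 3 values that reversed did so without PNx replicates 1, 2 and 3, Psmd3 (-0.079) and Psme4 (0.00802) for PNx+NaKtide against PNx and Psma7 (-0.077) for the interaction. The cause was not tested. Same-numbered libraries did not deviate together in every pair (correlations -0.59 to 0.71, and for PNx+NaKtide against PNx 4 of 6 pairs at 0.468 or above), so the numbers were not taken as pairs. A replicate block gave 0 calls in each test and 5 genes at an unadjusted p under 0.05 for PNx against Control, in place of 10. Depth limited the low genes, 17 counts in all for Psmb11.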
